A study of Homo sapiens with 8 samples.

Results

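The metallothionein genes and the core of the cellular zinc response were followed in NCI-H1688 and NCI-H146, established human lines that the labels assign to small cell lung cancer. The members were 8 genes taken by name from both expression tables: the metallothioneins MT2A, MT1X, MT1E, MT1F, MT1G and MT1M, the zinc-sensing transcription factor MTF1 and the zinc exporter SLC30A1. They were 8 of the 58375 distinct gene names in either table. The study depleted the Krüppel-like factor KLF9, a transcription factor with zinc fingers, to see how expression changes, and each line had a group infected with a lentivirus carrying an shRNA against KLF9 (genotype label KLF9 knockdown) and a group infected with a control shRNA lentivirus (genotype label WT), with 2 libraries per group and 8 in all. All cells had been selected with puromycin into stably infected lines, and each group was 1 such infected line as far as the labels tell. The labels mention biological replicates without saying that the libraries came from separate cultures, so p-values measure the spread between these libraries, which may be technical. Bulk RNA cannot tell a change in the number of cells that hold a transcript from a change in the amount per cell.

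Metallothioneins are small cysteine-rich proteins that bind zinc, copper and cadmium and buffer their free levels in the cytosol. When zinc rises, MTF1 binds it, enters the nucleus and attaches to metal response elements, short DNA motifs in the promoters of metallothionein genes and of SLC30A1. SLC30A1, also known as ZnT1, moves zinc out of the cell across the plasma membrane. High metallothionein mRNA is therefore widely used as a readout of zinc or cadmium exposure.

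All 6 metallothionein members lie in 1 cluster on the long arm of chromosome 16 (GRCh38, GENCODE 29 annotation), within 76.0 kb from 56608199 to 56684196. The 11 protein-coding metallothionein genes of the cluster span 119.1 kb from 56565049 to 56684196. MT2A occupies 56608199 to 56609497, MT1E 56625475 to 56627112, MT1M 56632233 to 56633986, MT1F 56657694 to 56660698 and MT1X 56682424 to 56684196, all on the plus strand. MT1G lies at 56666731 to 56668065 on the minus strand. MTF1 is on chromosome 1 at 37809567 to 37859620 and SLC30A1 on chromosome 1 at 211571568 to 211578742, both on the minus strand.

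The promoters of MT2A, MT1X and SLC30A1, textbook targets of MTF1, are shown. RefSeq gave windows for 4 members only, these and MTF1, so the other metallothionein members could not be compared. Each line below gives the 250 bases before the RefSeq start (GRCh38.p14), 5′ to 3′ on the gene's own strand: MT2A at chr16:56608334-56608583 (plus), MT1X at chr16:56682220-56682469 (plus) and SLC30A1 at chr1:211579162-211579411 (minus). Capitals mark matches on either strand to the metal response element core, searched as TGCACNC and TGCGCNC, and no match overlapped another.
MT2A: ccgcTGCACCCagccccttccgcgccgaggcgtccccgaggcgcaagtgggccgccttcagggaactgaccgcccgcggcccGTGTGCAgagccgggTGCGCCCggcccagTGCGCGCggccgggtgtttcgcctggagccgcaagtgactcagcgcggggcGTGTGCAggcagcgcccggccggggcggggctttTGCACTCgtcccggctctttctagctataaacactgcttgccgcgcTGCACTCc
MT1X: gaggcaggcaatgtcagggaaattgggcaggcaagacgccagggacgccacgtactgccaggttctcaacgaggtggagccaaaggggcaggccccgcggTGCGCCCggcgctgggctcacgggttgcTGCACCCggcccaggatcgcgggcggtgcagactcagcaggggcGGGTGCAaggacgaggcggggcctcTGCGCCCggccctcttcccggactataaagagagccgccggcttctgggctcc
SLC30A1: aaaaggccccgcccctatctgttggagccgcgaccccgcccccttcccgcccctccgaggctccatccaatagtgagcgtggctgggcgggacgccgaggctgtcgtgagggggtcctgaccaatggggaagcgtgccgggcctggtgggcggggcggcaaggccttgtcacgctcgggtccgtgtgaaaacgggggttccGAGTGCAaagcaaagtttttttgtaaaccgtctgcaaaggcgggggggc
The MT2A window held 7 matches, the MT1X window 4 and the SLC30A1 window 1, and the MTF1 window held 0. Of 35116 human promoter windows of the same length, 24.8% held at least 1 match, 0.37% at least 4 and 0.0313% at least 7. The match nearest the start lay at -8 to -2 in MT2A, at -53 to -47 in MT1X and at -49 to -43 in SLC30A1, counted backwards from -1 at the base before the start. The MT2A window was 73.2% G and C, the MT1X window 70%, the MTF1 window 70% and the SLC30A1 window 66.4%. The RefSeq starts differ from the GENCODE 29 gene bounds given above. The MT2A window lies inside the GENCODE gene, and the MT1X and MTF1 windows overlap the starts of theirs. The SLC30A1 window lies upstream of the GENCODE start at 211578742 without reaching it. Match counts and distances hold for the RefSeq starts only. The background windows were not matched to these windows for G and C. A match is a description of the letters and not a measured binding site.

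**Figure D1:**
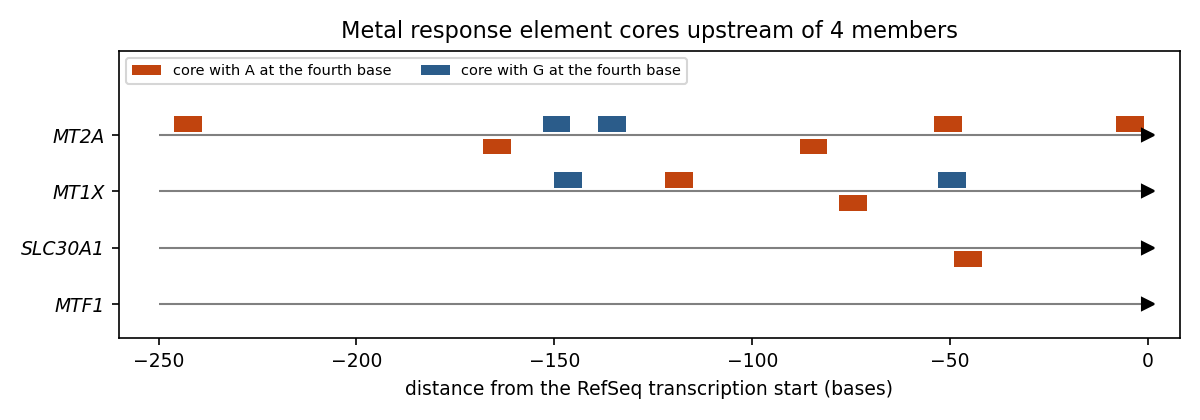
Matches to the metal response element core in the 250 bases before the RefSeq start of MT2A, MT1X, SLC30A1 and MTF1, by distance from the start in bases, drawn above the line for matches on the gene's strand and below it for the opposite strand, with orange for TGCACNC and blue for TGCGCNC. MT2A carries 7 matches, MT1X 4, SLC30A1 1 and MTF1 0.

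The targeted gene checked the labels in 1 line and went against them in the other. In NCI-H146, KLF9 measured 24.9 and 32.3 CPM (read counts scaled to library size) in KLF9 shRNA libraries, against 67.0 and 61.9 CPM in control libraries (log2 fold change -1.17, edgeR adjusted p = 0.0131). In NCI-H1688, KLF9 measured 1.95 and 1.60 TPM (abundance scaled for library size and transcript length) in the libraries labelled as KLF9 knockdown, against 0.298 and 0.644 TPM in the control libraries, which is the opposite direction (log2 fold change 0.92, limma adjusted p = 0.0952). Every direction below for NCI-H1688 is therefore that of the libraries labelled as KLF9 knockdown, and it is not known to follow a loss of KLF9. NCI-H146 libraries held 15406264 to 16109803 counts, and the NCI-H1688 TPM columns keep no depth. Mitochondrially encoded genes took 8.56% of counts in NCI-H146 KLF9 shRNA replicate 1 and 0.897% to 1.20% in the other 3 libraries of that line, and 14.7% to 18.2% of TPM in NCI-H1688. The neuroendocrine markers NEUROD1, INSM1 and DDC, which many small cell lung cancers express, were listed at 0 TPM in all 4 NCI-H1688 libraries, while the 6 squamous markers summed to 2978 and 2944 TPM in the libraries labelled as KLF9 knockdown and to 4055 and 4379 TPM in controls. In NCI-H146 the 7 genes of the neuroendocrine list with a row summed to 28.7 and 26.9 CPM in KLF9 shRNA libraries. In control libraries they summed to 8.56 and 11.4 CPM. NEUROD1 was below 1 CPM throughout, and INSM1 and DDC had no row there. The list also counted POU2F3, at 0.135 CPM or less in NCI-H146. POU2F3 was the only gene of the list tested in NCI-H1688. It measured 1.97 and 2.21 TPM in the libraries labelled as KLF9 knockdown, against 1.80 and 0.822 TPM in controls, and was not called. CHGA, SYP, CHGB and SCG3 were called higher in NCI-H146. Of the squamous markers S100A2, KRT5 and KRT6A were called lower in NCI-H1688 and TP63 and DSG3 higher. The 7 epithelial markers summed to 2230 and 2299 TPM in the NCI-H1688 libraries labelled as KLF9 knockdown and to 3194 and 3347 TPM in controls, with KRT8 and KRT18 called lower and CLDN4 and CDH1 called higher. In NCI-H146 the 5 with a row summed to 266 and 309 CPM in KLF9 shRNA libraries and to 293 and 198 CPM in controls, with CDH1 called higher. Leukocyte, fibroblast and endothelial markers summed to at most 20.1 TPM per list in NCI-H1688, with CD14 and COL1A1 called higher. In NCI-H146 the 5 fibroblast markers with a row summed to 58.3 and 72.1 CPM in KLF9 shRNA libraries and to 133 and 82.2 CPM in controls, with COL1A1 called lower, and TP63 of the squamous list was called lower. The leukocyte and endothelial lists reached at most 15.2 CPM. The marker lists' part in the member results was not tested.

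MT2A dominated the metallothionein mRNA of NCI-H1688 and was lower in the libraries labelled as KLF9 knockdown, while MT1X was about 2.09 times as high there. The total over the metallothionein members was 0.800 of the control level. In NCI-H146 no metallothionein member passed the test, and the gene that fell was MTF1, to 0.473 of the control level. A gene was called changed at a Benjamini-Hochberg adjusted p under 0.05 over all genes tested in its line. In NCI-H1688, 2 of the 6 members tested were called, 1 higher and 1 lower, where 16.0% of all 14754 genes tested were called (6.36% higher and 9.67% lower). The balance of higher to lower calls in that line turned with limma without trend, at 488 higher and 346 lower. In NCI-H146, 1 of the 5 members tested was called, lower, where 17.1% of 13129 genes were called (8.01% higher and 9.12% lower). With so few members, these counts do not set them apart from the background.

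MT2A, the most widely expressed metallothionein, was among the most abundant transcripts of NCI-H1688. It measured 11896 and 11328 TPM in the libraries labelled as KLF9 knockdown, against 14341 and 16164 TPM in the control libraries. These groups did not overlap: both labelled knockdown libraries lay below both controls. By TPM it ranked 7 and 6 among the genes of the libraries labelled as KLF9 knockdown and 4 in each control library. The means were 11612 ± 402 TPM and 15252 ± 1289 TPM (SD, n = 2 each), a ratio of 0.761. MT2A fell, with a log2 fold change of -0.39 on the log2(TPM + 1) scale (standard error 0.0836, 95% interval -0.61 to -0.17, limma adjusted p = 0.0454). That call was narrow: without control replicate 1 the log2 fold change was -0.48 (limma adjusted p = 0.0666), without control replicate 2 -0.30 (0.104), without KLF9 shRNA replicate 1 -0.43 (0.311) and without KLF9 shRNA replicate 2 -0.36 (0.357). Fits with 1 library left out called between 0 and 24 genes in the whole table.

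MT2A was an ordinary transcript in NCI-H146. It measured 62.3 and 57.5 CPM in KLF9 shRNA libraries, from 920 and 922 counts, against 66.7 and 47.9 CPM in control libraries, from 990 and 812 counts. Both KLF9 shRNA libraries lay between the control libraries. The means were 59.9 ± 3.36 CPM and 57.3 ± 13.3 CPM (SD, n = 2 each), and the log2 fold change of 0.06 (standard error 0.281) had a 95% interval of -0.53 to 0.66, that is, 0.694-fold to 1.58-fold (edgeR adjusted p = 0.894). Its sign rested on control replicate 3, without which the log2 fold change was -0.16.

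MT1X, an inducible isoform at the distal end of the cluster, rose in NCI-H1688. It measured 704 and 721 TPM in the libraries labelled as KLF9 knockdown, against 304 and 378 TPM in the control libraries, with no overlap. The means were 712 ± 12.4 TPM and 341 ± 52.0 TPM (SD, n = 2 each), and the log2 fold change was 1.07 (standard error 0.113, 95% interval 0.77 to 1.37, limma adjusted p = 0.0120). Leaving out a library kept the size but not the call. The log2 fold change was 0.91 without control replicate 1 (limma adjusted p = 0.0539), 1.22 without control replicate 2 (0.0573), 1.09 without KLF9 shRNA replicate 1 (0.137) and 1.05 without KLF9 shRNA replicate 2 (0.154). Of the 50-base windows of the principal MT1X transcript, 54.9% occurred in no other gene, and of the 100-base windows 80.9%. The gene that shared most of the other windows was AC026461.1. Reads could thus be split with AC026461.1, which was listed at 0 TPM in all 4 NCI-H1688 libraries.

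In NCI-H146, MT1X measured 32.0 and 36.1 CPM in KLF9 shRNA libraries (472 and 578 counts), against 31.2 and 22.5 CPM in control libraries (463 and 382 counts). Both KLF9 shRNA libraries lay above both controls, narrowly in the case of control replicate 2. The means were 34.0 ± 2.91 CPM and 26.9 ± 6.12 CPM (SD, n = 2 each). The log2 fold change of 0.34 (standard error 0.297) did not pass (edgeR adjusted p = 0.441). Its 95% interval ran from 0.821-fold to 1.95-fold, and overlapped that of NCI-H1688, which ran from 1.71-fold to 2.58-fold. Without control replicate 2 the log2 fold change was 0.63, and without control replicate 3 it was 0.12, and neither was called. The tables were normalized separately, so the difference between the lines was not tested.

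MT1E, another member of the MT1 group of isoforms, stood close to MT1X in NCI-H1688, well below MT2A. It measured 472 and 483 TPM in the libraries labelled as KLF9 knockdown, against 405 and 432 TPM in the control libraries. The labelled knockdown libraries were higher without overlap, by a ratio of 1.14 between the means. The log2 fold change was 0.19 (standard error 0.0557, 95% interval 0.04 to 0.34) and was not called (limma adjusted p = 0.0886). It passed with a further TMM scaling of the TPM (0.21, limma adjusted p = 0.0466) and with mitochondrial genes left out (0.23, limma adjusted p = 0.0484). The NCI-H146 counts held no row for MT1E, so it could not be tested there.

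MT1F, an isoform kept at low levels in both lines, had the same sign in both. In NCI-H1688 it measured 17.6 and 16.9 TPM in the libraries labelled as KLF9 knockdown, against 5.57 and 10.4 TPM in the control libraries, a ratio of 2.16 between the means. The groups did not overlap, but the controls lay well apart from each other, and the log2 fold change of 1.08 (standard error 0.276, 95% interval 0.35 to 1.80) was not called (limma adjusted p = 0.0673). It passed when genes with a mean under 5 TPM were left out (limma adjusted p = 0.0363). Without control replicate 1 it was 0.68 (limma adjusted p = 0.0778) and without control replicate 2 it was 1.47 (0.0734). In NCI-H146 MT1F rested on few reads, 15 and 23 counts in KLF9 shRNA libraries and 10 and 6 counts in control libraries, or 1.02 and 1.44 CPM against 0.674 and 0.354 CPM. The groups did not overlap, and the log2 fold change of 1.26 (standard error 0.568, 95% interval 0.06 to 2.46) was not called (edgeR adjusted p = 0.129).

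MT1G and MT1M, metallothioneins with expression limited to some tissues, were listed at 0 TPM in all 4 NCI-H1688 libraries and were not tested. Neither had a row in the NCI-H146 counts.

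**Figure D2:**
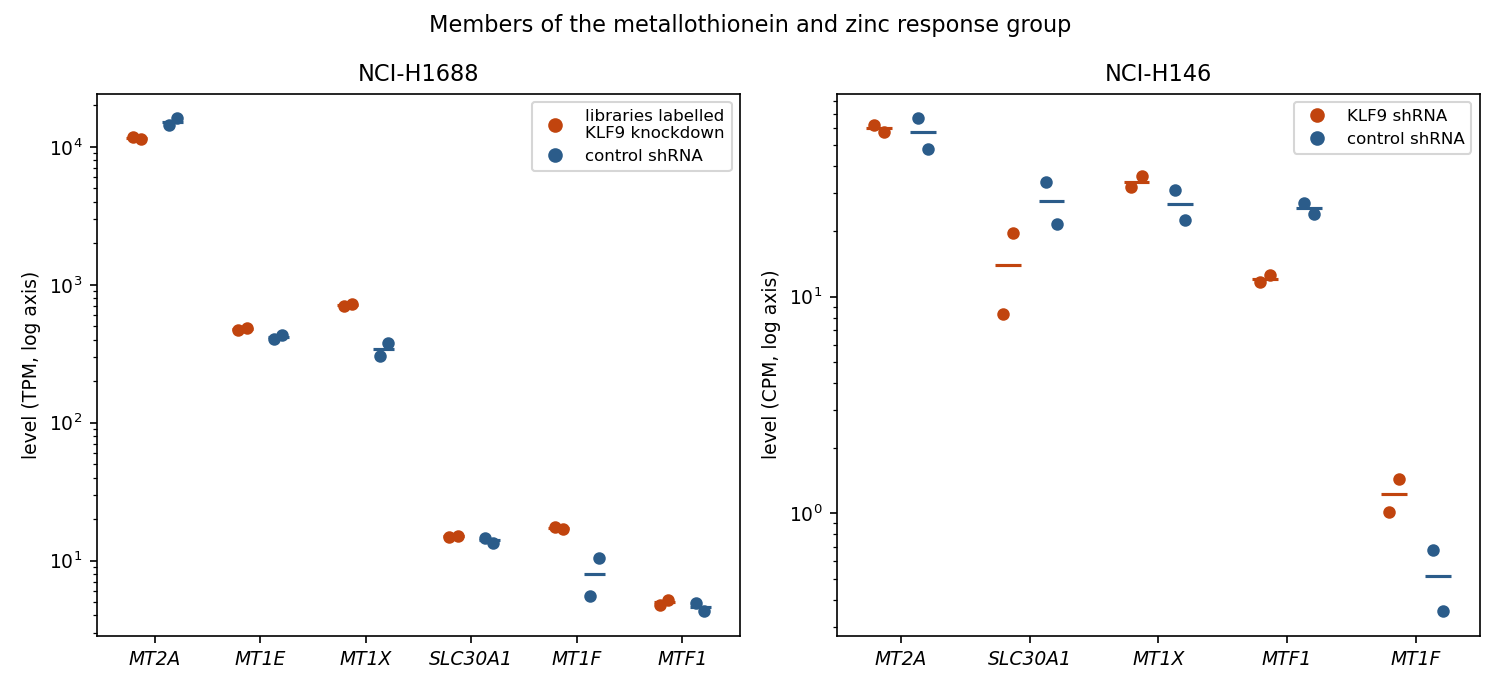
Level of each measured member in each library, on a log axis, in TPM for NCI-H1688 (left) and CPM for NCI-H146 (right), with libraries labelled KLF9 shRNA (orange) to the left of controls (blue), points for libraries and lines for group means. MT2A stands at 11328 to 16164 TPM in NCI-H1688, and MTF1 in NCI-H146 is at 11.6 and 12.6 CPM in KLF9 shRNA libraries against 27.1 and 24.2 CPM in controls.

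MTF1, the zinc sensor, fell in NCI-H146. It measured 11.6 and 12.6 CPM in KLF9 shRNA libraries (172 and 202 counts), against 27.1 and 24.2 CPM in control libraries (402 and 410 counts). Each group was tight and the groups stood well apart, with means of 12.1 ± 0.678 CPM and 25.6 ± 2.04 CPM (SD, n = 2 each). The log2 fold change was -1.08 (standard error 0.303, 95% interval -1.72 to -0.44, edgeR adjusted p = 0.0246). The call was lost without control replicate 2 (log2 fold change -0.96, edgeR adjusted p = 0.312) and without control replicate 3 (-1.16, 0.138), in fits that called 51 and 537 genes in all. In NCI-H1688, MTF1 measured 4.79 and 5.21 TPM in the libraries labelled as KLF9 knockdown, against 4.96 and 4.31 TPM in the control libraries. These overlapped, and the log2 fold change was 0.093 (standard error 0.136, 95% interval -0.27 to 0.45, limma adjusted p = 0.677).

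SLC30A1, the exporter, differed widely between replicates in NCI-H146. It measured 8.33 and 19.6 CPM in KLF9 shRNA libraries (123 and 314 counts), against 33.8 and 21.7 CPM in control libraries (501 and 368 counts). Both KLF9 shRNA libraries lay below both controls, but KLF9 shRNA replicate 2 sat close to control replicate 3. The log2 fold change of -0.99 (standard error 0.378, 95% interval -1.78 to -0.19) was not called (edgeR adjusted p = 0.0799). Without KLF9 shRNA replicate 2 it was -1.73 and was called (edgeR adjusted p = 5.14e-06), and without KLF9 shRNA replicate 1, the library with 8.56% mitochondrial counts, it was -0.49 (0.169). In NCI-H1688, SLC30A1 measured 14.9 and 15.0 TPM in the libraries labelled as KLF9 knockdown, against 14.7 and 13.4 TPM in the control libraries. The log2 fold change was 0.088 (standard error 0.0864) with a 95% interval of -0.14 to 0.32 (limma adjusted p = 0.523). The NCI-H146 estimate of -0.99 lay outside that interval, but it was itself not called and its own interval reached -0.19. The difference between the lines was not tested.

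**Figure D3:**
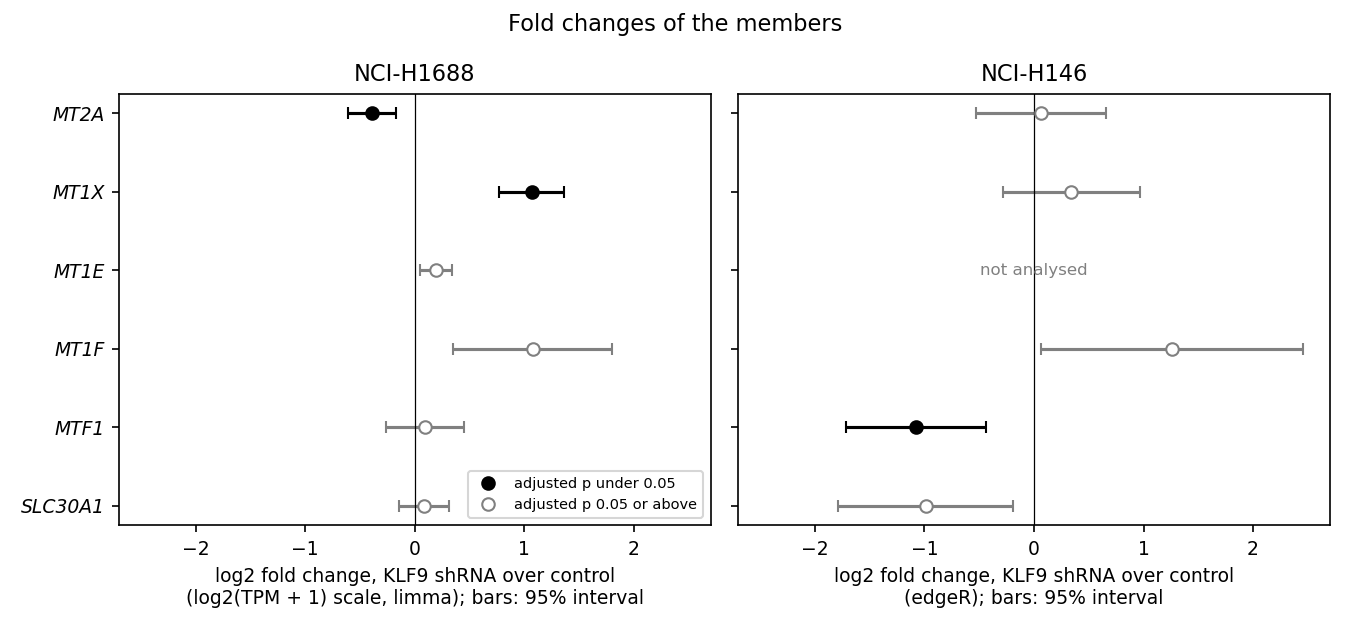
Log2 fold change of each tested member, libraries labelled KLF9 shRNA over control, with 95% intervals, in NCI-H1688 (limma, on log2(TPM + 1)) and NCI-H146 (edgeR). MT1X (1.07) and MT2A (-0.39) are called in NCI-H1688 and MTF1 (-1.08) in NCI-H146.

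The groups did not overlap for 4 members higher and 1 lower of 6 in NCI-H1688, and for 2 higher and 2 lower of 5 in NCI-H146. Over all genes tested, groups did not overlap for 62.7% in NCI-H1688 (28.9% higher and 33.8% lower) and for 62.5% in NCI-H146 (30.6% higher and 31.9% lower). Separation of the groups was therefore common in both tables. The median log2 fold change of the members was 0.14 in NCI-H1688, where that of all genes tested was -0.02, and 0.06 in NCI-H146, where that of all genes tested was 0.01.

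The make-up of the metallothionein pool shifted in NCI-H1688 as MT2A and MT1X moved in opposite directions. The 6 metallothionein members summed to 13090 and 12549 TPM in the libraries labelled as KLF9 knockdown, against 15055 and 16984 TPM in the control libraries. MT2A made up 90.9% and 90.3% of the sum in the libraries labelled as KLF9 knockdown and 95.3% and 95.2% in the control libraries. MT1X made up 5.38% and 5.75%, against 2.02% and 2.23% in controls, and MT1E 3.61% and 3.85%, against 2.69% and 2.55%. The share of MT2A was thus lower, and those of MT1X and MT1E higher, in both labelled knockdown libraries. MT1F stayed the smallest share of the measured genes, at 0.134% and 0.135% against 0.0370% and 0.0613% in controls. Set against MT2A in the same library, a ratio that no scaling between libraries can alter, MT1X stood at 5.91% and 6.37% of MT2A in the libraries labelled as KLF9 knockdown and at 2.12% and 2.34% in the control libraries, a 2.75-fold difference. The exact permutation test gave a two-sided p of 0.333, the smallest that 6 splits of 4 libraries allow. MT1E stood at 3.97% and 4.26% of MT2A in the libraries labelled as KLF9 knockdown and at 2.82% and 2.68% in the control libraries.

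With GENCODE 29 transcript lengths, the pool of NCI-H146 was mixed rather than led by 1 gene. Counts there were divided by the length of each principal transcript so that genes could be compared. The MT2A transcript used has 786 bases, and its gene starts at 56608199, upstream of the RefSeq start used above. A shorter MT2A transcript would raise its level per kb and its share, so the order of the genes rests on this choice. It also rests on how reads shared between genes were counted, which is not given. Of the 50-base windows, 54.9% occurred in no other gene for MT1X, 95.1% for MT2A and 94.2% for MT1A. The same limit holds for MT1X as a percent of MT2A. MT2A stood at 79.3 and 73.2 CPM per kb in KLF9 shRNA libraries and at 84.9 and 61.0 in control libraries. MT1X stood at 71.0 and 80.2 CPM per kb in KLF9 shRNA libraries and at 69.3 and 50.1 in control libraries, and MT1A, an isoform that was listed at 0 TPM in NCI-H1688, at 58.3 and 58.5 against 53.6 and 53.2. With these lengths, the 3 genes had levels of the same order. SLC30A1 and MTF1 were far lower, at 1.52 and 3.58 CPM per kb against 6.17 and 3.97 in controls for SLC30A1, and at 1.46 and 1.58 against 3.40 and 3.04 in controls for MTF1. MT1F was slightly above MTF1 in both KLF9 shRNA libraries (1.47 and 2.08 CPM per kb) and the lowest of these genes in the controls (0.976 and 0.513). Before length scaling, MT1X was 51.3% and 62.7% of MT2A in KLF9 shRNA libraries and 46.8% and 47.0% in control libraries, a 1.21-fold difference with the same smallest exact permutation p of 0.333.

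**Figure D4:**
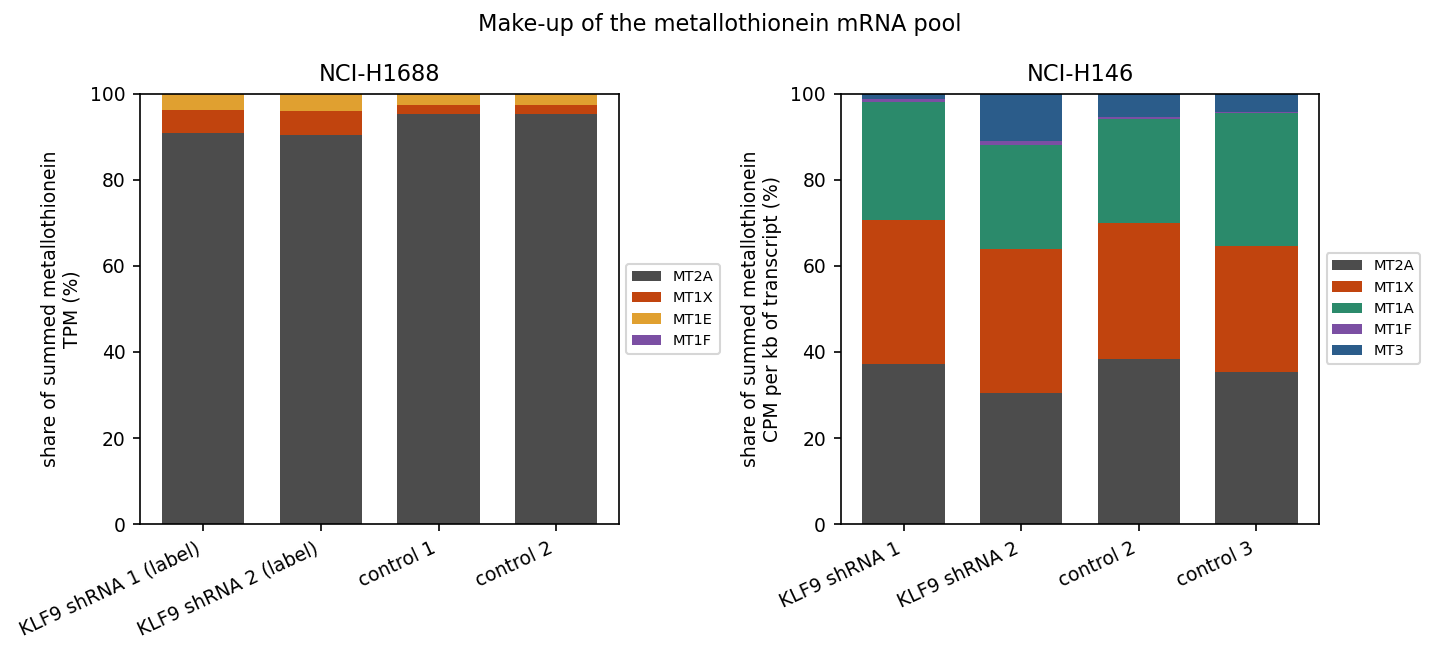
Share of each gene in the summed metallothionein level of each library, as percent of TPM in NCI-H1688 (left, where KLF9 shRNA libraries are those so labelled) and as percent of CPM per kb of transcript in NCI-H146 (right). MT2A takes 90.3% to 95.3% of the NCI-H1688 pool and 30.5% to 38.4% of the NCI-H146 pool, where MT1X and MT1A take similar shares.

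By level the NCI-H1688 members ran from MT2A, then MT1X or MT1E, then MT1F or SLC30A1, to MTF1, the lowest of those above 0. MT1E was above MT1X in both controls (405 and 432 TPM for MT1E, 304 and 378 TPM for MT1X) and below it in both labelled knockdown libraries (472 and 483 TPM for MT1E, 704 and 721 TPM for MT1X). MT1F was above SLC30A1 in the labelled knockdown libraries and below it in the controls, and SLC30A1 stayed between 13.4 and 15.0 TPM.

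The rest of the metallothionein family had little signal in NCI-H1688. Of the 14 other family genes and pseudogenes with a row, 9 were listed at 0 TPM in all 4 libraries: MT1A, MT1B, MT1H, MT1L, MT1CP, MT1HL1, MT2P1, MT3 and MT4. The other 5, all pseudogenes, were tested and none was called. MT1JP measured 3.14 and 3.41 TPM in the libraries labelled as KLF9 knockdown and 3.87 and 1.90 TPM in the control libraries, and MT1DP 3.47 and 3.85 TPM against 0 and 7.28 TPM. MT1XP1, MT1P1 and MT1P3 were above 0 in only 1 or 2 libraries each, with 4.09 TPM at most in the libraries labelled as KLF9 knockdown and 0 in controls for MT1XP1, 3.94 and 0 TPM against 0 and 16.5 TPM for MT1P1, and 4.92 and 0 TPM against 0 and 4.76 TPM for MT1P3.

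In NCI-H146 the other family genes with a row were MT1A and MT3. MT1A measured 23.1 and 23.2 CPM in KLF9 shRNA libraries (341 and 371 counts), against 21.2 and 21.1 CPM in control libraries (315 and 357 counts). Its 4 libraries lay close together, and it was not called (log2 fold change 0.13, edgeR adjusted p = 0.787). MT3, the isoform best known from brain, measured 1.49 and 15.0 CPM in KLF9 shRNA libraries, against 6.80 and 4.13 CPM in control libraries. Its KLF9 shRNA libraries held the lowest and the highest value of the 4, and it was not called (log2 fold change 0.60, edgeR adjusted p = 0.524).

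Zinc transporters moved in both directions. The SLC39A family brings zinc into the cytosol, and of its 10 members tested in NCI-H1688, 2 rose and 2 fell (6.36% and 9.67% over all genes), with a median log2 fold change of -0.07 against -0.02 over all genes. SLC39A8, an importer of zinc, manganese and cadmium, rose to 23.1 and 25.3 TPM in the libraries labelled as KLF9 knockdown, against 8.18 and 9.77 TPM in the control libraries (log2 fold change 1.34, limma adjusted p = 0.00933). SLC39A11 rose to 19.1 and 18.4 TPM in the libraries labelled as KLF9 knockdown, against 10.2 and 12.0 TPM in controls (0.71, limma adjusted p = 0.0219). SLC39A13, which serves the secretory pathway, fell to 34.1 and 32.4 TPM, against 52.5 and 53.1 TPM in controls (-0.65, limma adjusted p = 0.0104). SLC39A10, a plasma membrane importer, fell to 14.6 and 16.2 TPM, against 22.9 and 23.0 TPM in controls (-0.55, limma adjusted p = 0.0235). None of the 5 other SLC30A exporters tested there was called (median -0.10). With any 1 library left out, no transporter of either list was called in NCI-H1688.

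In NCI-H146, 2 of 11 importers rose and 1 fell (8.01% and 9.12% over all genes), with a median of 0.07 against 0.01 over all genes. SLC39A11 rose there as well, to 9.95 and 15.7 CPM in KLF9 shRNA libraries, against 3.64 and 3.90 CPM in control libraries (log2 fold change 1.76, edgeR adjusted p = 0.00693). SLC39A1, a plasma membrane importer, rose to 168 and 268 CPM in KLF9 shRNA libraries, against 108 and 90.2 CPM in controls (1.14, edgeR adjusted p = 0.0192). SLC39A6, also at the plasma membrane, fell to 124 and 84.5 CPM, against 219 and 251 CPM in controls (-1.17, edgeR adjusted p = 0.0151). Of the 7 exporters tested, 2 fell and 0 rose (median -0.31). SLC30A7, which loads zinc into the Golgi, fell to 9.62 and 6.93 CPM in KLF9 shRNA libraries, against 19.7 and 16.9 CPM in controls (-1.14, edgeR adjusted p = 0.0274). SLC30A10, known for manganese export, fell to 1.22 and 0.936 CPM, against 5.05 and 2.83 CPM in controls (-1.86, edgeR adjusted p = 0.0166). Without control replicate 2, 0 exporters and 0 importers were called, and without control replicate 3, 1 exporter was lower and 1 importer higher.

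Genes outside the family that cells induce on exposure to cadmium, zinc or oxidants were also followed. In NCI-H146, 7 of the 15 fell and 1 rose, with a median log2 fold change of -0.96 against 0.01 over all genes. Over all genes 9.12% were called lower and 8.01% higher. ZFAND2A, an arsenite- and heat-induced gene, fell to 6.30 and 6.62 CPM in KLF9 shRNA libraries, against 85.7 and 32.2 CPM in control libraries (log2 fold change -3.19, edgeR adjusted p = 0.000511). The co-chaperone BAG3 fell to 99.3 and 74.4 CPM, against 574 and 253 CPM in controls (-2.25, edgeR adjusted p = 0.00198). DNAJB1, an HSP40 co-chaperone, fell to 120 and 185 CPM, against 1039 and 370 CPM in controls (-2.21, edgeR adjusted p = 0.00459). Control replicate 2 was the highest library for all 3 of these genes, and more than 2 times as high as control replicate 3. HSPA6, a strictly stress-induced HSP70, measured 2.30 and 37.7 CPM in KLF9 shRNA libraries, against 246 and 78.4 CPM in controls (-3.01, edgeR adjusted p = 0.0144). The HSP70 genes HSPA1A (-0.96, edgeR adjusted p = 0.235) and HSPA1B (-0.40, 0.529) were not called. HMOX1, SLC7A11 and PGF also fell, and SELENOH rose. Without control replicate 2, 1 gene of the list was called lower. Over the same libraries MT2A and MT1X, which the same metals induce, had the log2 fold changes of 0.06 and 0.34 given above, and both were higher in control replicate 2 than in control replicate 3.

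In NCI-H1688 the same list had 2 genes higher and 3 lower of 14 tested (6.36% and 9.67% over all genes), with a median of -0.10 against -0.02 over all genes. TXNRD1, SRXN1 and SLC7A11, which belong to the antioxidant response, fell. TXNRD1 measured 91.4 and 89.5 TPM in the libraries labelled as KLF9 knockdown, against 149.9 and 144.9 TPM in the control libraries (log2 fold change -0.70, limma adjusted p = 0.00743). SRXN1 measured 18.5 and 19.6 TPM in the libraries labelled as KLF9 knockdown, against 27.0 and 29.3 TPM in controls (-0.54, limma adjusted p = 0.0226). HSPA1B rose to 377 and 376 TPM, against 255 and 263 TPM in controls (0.54, limma adjusted p = 0.00933), and HSPA1A to 114 and 119.9 TPM, against 89.7 and 87.7 TPM (0.40, limma adjusted p = 0.0198). HSPA1A and HSPA1B are near copies, so reads may have been divided between them. With any 1 library left out, no gene of the list was called.

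**Figure D5:**
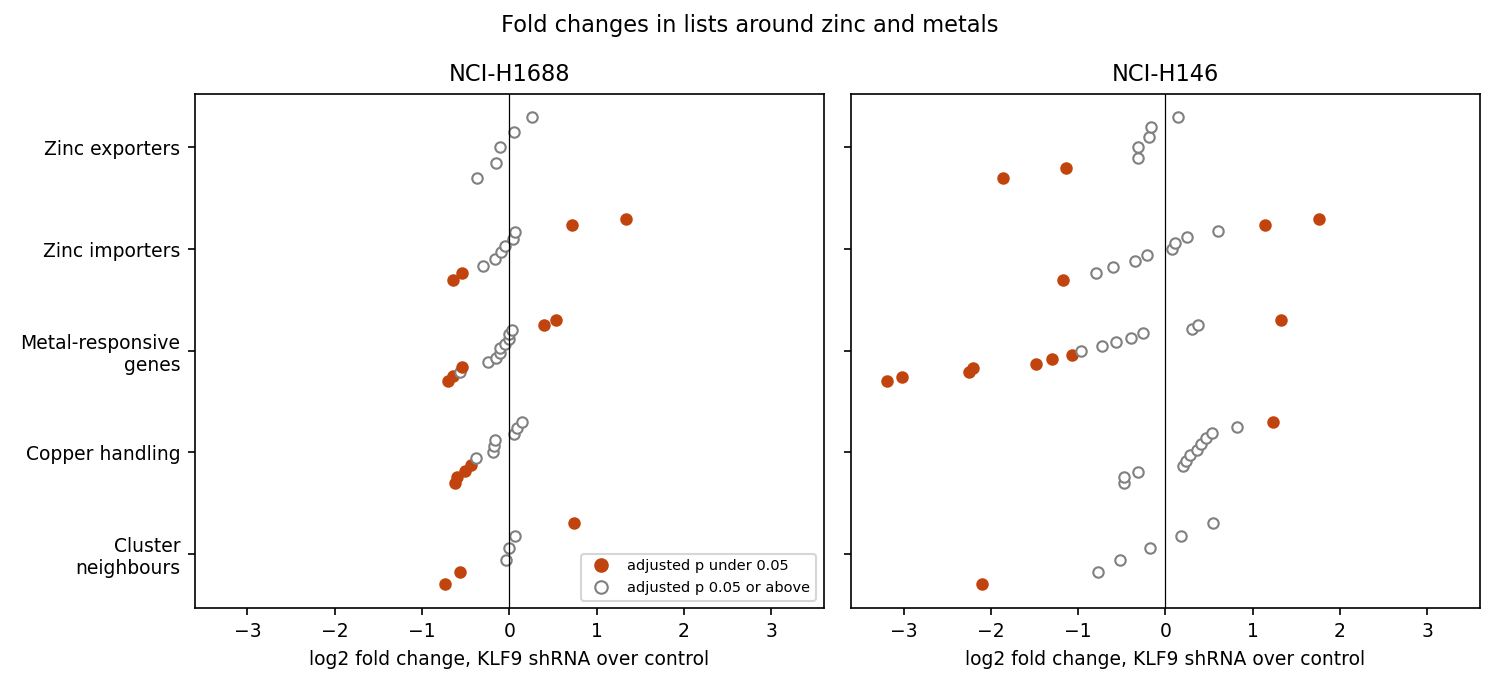
Log2 fold change of each tested gene in the lists around zinc and metals, libraries labelled KLF9 shRNA over control, for NCI-H1688 and NCI-H146. The metal-responsive genes have a median of -0.96 in NCI-H146 and -0.10 in NCI-H1688, and the zinc importers lie on both sides of 0 in both lines.

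The genes whose profile was most like the summed metallothionein level were looked for among 8468 genes tested in both lines with a mean of at least 5 TPM and 5 CPM. Likeness was the root mean square difference between log2 profiles, centred within each line, over the 8 libraries. RPL6, a protein of the large ribosomal subunit, came first at 0.0397, followed by DDX56 (0.0477), ZNF205 (0.0480), SEM1 (0.0525) and AFMID (0.0535). RPL6 measured 1314 and 1331 TPM in the NCI-H1688 libraries labelled as KLF9 knockdown, against 1627 and 1840 TPM in the control libraries. In NCI-H146 it measured 1344 and 1403 CPM in KLF9 shRNA libraries, against 1473 and 1065 CPM in control libraries. The summed metallothioneins of NCI-H146 measured 95.3 and 95.0 CPM in KLF9 shRNA libraries, against 98.6 and 70.8 CPM in control libraries. Control replicate 3 was the lowest library of that line for both. Because the 5 genes were picked from 8468 for likeness over these same 8 libraries, such sharing follows from the choice. In NCI-H1688 the sum was mostly MT2A, so the likeness there is largely to that gene.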

How the data were processed

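Poly(A) RNA was sequenced from 8 libraries, 2 per group in each of 2 lines, from fragmented RNA copied with random primers, per the labels' protocols. STAR 2.5.1, DESeq2 and GRCh38 (hg38) are named in the submitters' processing notes without their roles. The counting program, the annotation, the read length and the use of strand are not given in the sources used here. For NCI-H1688 the authors deposited TPM (58434 rows, 30042 at 0 in all libraries), whose columns summed to 843186 to 885808, below the total of a full TPM column, and the cause was not tested. TPM keep no depth, and no count interval is given for that line. For NCI-H146 the authors deposited read counts for 17169 genes, the smallest total being 2.

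Members and gene lists were chosen with earlier results of these data known. Each line was fitted alone, because units and normalization differ. The TPM went into limma 3.58.1 (moderated by empirical Bayes with a trend) as log2(TPM + 1), for genes averaging 1 TPM or more, a scale that understates the change of low genes. Of rows sharing a name, the one with the highest mean was kept (1453 dropped). Counts were tested with edgeR 4.0.16 (quasi-likelihood F test, TMM, filterByExpr) under R 4.3.3, and CPM use TMM totals. P-values were adjusted by Benjamini-Hochberg over all genes of a line at a threshold of 0.05. Standard errors of edgeR fold changes are |log2 fold change| over the root of F, and 95% intervals are not adjusted. The named genes are the members, the other metallothioneins with a row, KLF9, the called genes of each list (up to 4 per line by adjusted p, with the remaining called ones named only), and the 5 genes most like the metallothionein sum. Alternatives were other pseudocounts, filters and scalings, DESeq2 1.42.0 and limma-voom for counts, limma without trend, a replicate block and each library left out. On simulated data for NCI-H146, edgeR found 20.6% of the genes given a log2 change of 1, and 88% at a change of 2 (6 false calls, 12991 genes). For NCI-H1688, limma found 97.0% and 100% (13 false calls, 14410 genes). That simulation gave all genes of the same level the same spread, which favours limma with a trend. Its recovery therefore need not hold for the real libraries. Promoter sequences are from RefSeq, which gave windows for 4 members, and positions from GENCODE 29.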

Additional observations from a re-analysis of the deposited data

Results flagged for a closer look

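Some genes had groups that did not overlap in either line, but in opposite directions. Over all genes tested in both lines this held for 2834 of 10773 (26.3%), so such a pattern was common. The tables were normalized separately, so the difference between lines was not tested, and the NCI-H1688 direction is that of the libraries labelled as KLF9 knockdown. Log2 fold changes are given for NCI-H1688 and then NCI-H146.

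KLF9 itself stood at 0.92 and -1.17 and was called in NCI-H146 only. Of 5 members tested in both lines, SLC30A1 showed the pattern, at 0.088 and -0.99, and was called in neither. The importer SLC39A8 (1.34 and -0.21) was called in NCI-H1688 only, and the exporter SLC30A7 (0.050 and -1.14) and the metal-responsive gene SELENOH (-0.11 and 1.32) in NCI-H146 only. Of 11 copper handling genes tested in both lines, 6 showed it. SCO2 (-0.60 and 0.82), ATOX1 (-0.62 and 0.23) and SCO1 (-0.44 and 0.28) were called in NCI-H1688 only, and COX17 (-0.17 and 0.53), SOD1 (-0.19 and 0.36) and SLC31A1 (0.057 and -0.48) in neither. Beside the metallothionein cluster, HERPUD1 (0.74 and -2.10) was called in both lines and NUP93 (-0.57 and 0.54) in NCI-H1688 only. The cell type markers COL1A1 (0.49 and -1.55) and TP63 (0.54 and -1.70) were called in both lines.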

How the results depend on the processing

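In NCI-H1688 the 2366 genes called became 943 with no filter on low values, 834 with limma without trend and 1218 with the replicate block, and 0 to 24 with 1 library left out, although 3298 genes still had an unadjusted p under 0.05 in the smallest such fit. The 2 members called became 1 with a pseudocount of 2, 1 with no filter, 1 without trend, 1 with the replicate block, 3 with a mean of at least 5 TPM, with TMM scaling or with mitochondrial genes left out, and 0 in each fit with 1 library left out. MT1X kept its call in 8 of 12 alternatives, all but those that left out a library, and MT2A in 4 of 12 (limma adjusted p 0.0220 to 0.411). Same-numbered NCI-H1688 libraries did not deviate together over all genes (correlation -0.0051 over 14754 genes). This 1 correlation cannot tell whether same-numbered libraries were prepared together. No paired analysis was possible in NCI-H146 because the groups share fewer than 2 numbers. There the 2250 genes called became 51 to 5026, and the 1 member called became 0 to 2, with 1 library left out. MTF1 kept its call in 8 of 10 alternatives (edgeR, DESeq2 and limma-voom adjusted p 0.00321 to 0.312). MT2A of NCI-H146 ranged from -0.16 without control replicate 3, where its sign changed, to 0.36 without control replicate 2. The cause of these changes was not tested, and fits without a library have fewer samples. The counts in the other gene lists were recomputed as an alternative chosen after seeing the data: the 7 metal-responsive genes lower in NCI-H146 became 4 with no filter on low counts. Over all alternatives, 101 of the 120 recomputed member fold changes kept their direction and their side of the threshold. A group of 2 libraries limits every result, and MT1F in NCI-H146 rests on 6 to 23 counts per library.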

Other observations

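Among copper handling genes, which share metals with the metallothioneins, 4 of 11 tested in NCI-H1688 fell and 0 rose, where 9.67% of all genes fell and 6.36% rose, with a median log2 fold change of -0.19 against -0.02 over all genes. The copper chaperone ATOX1 measured 143 and 163 TPM in the libraries labelled as KLF9 knockdown, against 218 and 253 TPM in the control libraries (log2 fold change -0.62, limma adjusted p = 0.0284). SCO2, which delivers copper to cytochrome c oxidase, measured 17.2 and 20.0 TPM in the libraries labelled as KLF9 knockdown, against 28.2 and 29.1 TPM in controls (-0.60, limma adjusted p = 0.0252), and SCO1 and SLC31A2 fell as well. With limma without trend or with no filter on low values, 0 of them were called, with the replicate block 2, and 0 with any library left out. In NCI-H146, 1 of 12 rose and 0 fell (median 0.32), where 8.01% of all genes rose and 9.12% fell. That gene was CCS, the copper chaperone of superoxide dismutase, at 14.6 and 22.9 CPM in KLF9 shRNA libraries, against 7.48 and 8.44 CPM in control libraries (1.24, edgeR adjusted p = 0.0223), and it was not called without either control library.

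The genes that flank the metallothionein cluster on chromosome 16 did not move as 1 block. Of 6 tested in NCI-H1688, 1 rose and 2 fell, where 6.36% of all genes rose and 9.67% fell. In NCI-H1688, HERPUD1, an endoplasmic reticulum stress gene, rose to 44.6 and 44.1 TPM in the libraries labelled as KLF9 knockdown, against 24.7 and 27.7 TPM in the control libraries (log2 fold change 0.74, limma adjusted p = 0.0128). NUP93, a nuclear pore protein, fell to 35.4 and 37.0 TPM, against 52.5 and 55.7 TPM in controls (-0.57, limma adjusted p = 0.0145). OGFOD1, a ribosomal prolyl hydroxylase, fell to 34.1 and 28.8 TPM, against 51.1 and 55.0 TPM in controls (-0.74, limma adjusted p = 0.0194). The median over the 6 neighbours tested was -0.02, the same as over all genes, and none was called with any library left out. In NCI-H146, where 8.01% of all genes rose and 9.12% fell, HERPUD1 was the 1 neighbour called of 6. It measured 121 and 156 CPM in KLF9 shRNA libraries, against 837 and 357 CPM in controls (-2.10, edgeR adjusted p = 0.00368), and was not called without control replicate 2.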
